A study of Homo sapiens with 2 samples.

Results

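The genes described here are the AP-1 subunits FOS, FOSB, FOSL2, JUN, JUNB and JUND and the immediate early genes EGR1, ATF3, IER3 and KLF6. These 10 genes were chosen by symbol out of 36601 genes counted, and all 10 were detected in both libraries. AP-1 is a dimer of a JUN protein with a FOS, JUN or ATF family protein, and it binds short palindromic DNA sites. Immediate early genes are transcribed within minutes of a growth factor, stress or adhesion signal, without new protein synthesis, and their mRNAs are mostly short-lived. In prostate and other epithelia they are known for linking mitogen and stress signals to proliferation, wound repair and survival, and enzymatic dissociation of cultured cells is itself known to induce several of them.

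The study compared RWPE-ERG-mAKT cells with RWPE1 cells by single-cell RNA sequencing, to ask which cell populations the expression of ERG with active AKT creates or changes. RWPE1 is an immortalized, non-tumorigenic prostate epithelial cell line. RWPE-ERG-mAKT is the same line after retroviral transfer of the transcription factor ERG, driven by the HNRNPA2B1 promoter in a modified pLHCX vector, and of myristoylated, Flag-tagged AKT1 in pBabe-puro, a form of the kinase that is held at the membrane and is constantly active. The labels call the RWPE1 library a vector-only control, whereas the text of the study calls these cells parental. The RWPE1 line was kept in serum-free keratinocyte medium, transduced cells were selected with hygromycin and puromycin, and both cultures were trypsinized and loaded with an input of 10000 cells. Each line was measured in 1 library. The transgenes, the culture, the handling and the library therefore cannot be told apart, no test between the lines was possible, and every interval given covers counting error only.

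Values were taken from cells with over 2500 detected genes and under 7.5% mitochondrial UMIs. A UMI is a molecular tag that marks 1 captured RNA molecule. This left 14140 of 17355 barcodes in RWPE-ERG-mAKT and 9967 of 12504 barcodes in RWPE1. The RWPE-ERG-mAKT cells were shallower, with a median of 13601 UMIs and 4105 genes, against 16972 UMIs and 4828 genes in RWPE1, and had a lower median mitochondrial share, 2.73% against 5.44%. The libraries shared 55 barcode sequences. ERG, a check of the labels, was at 20.8 CPM (UMIs per 1000000 UMIs of the library) in RWPE-ERG-mAKT and 1.44 CPM in RWPE1, and AKT1 was at 19.1 and 22.0 CPM; whether the 3' ends of the transgenes were countable is not given in the sources used here. All 8 epithelial markers were present in both libraries, with summed levels of 5788 CPM in RWPE-ERG-mAKT and 6560 CPM in RWPE1. Of 4 prostate luminal markers, 1 reached 1 CPM in either library, and KLK3 was at 0 in RWPE-ERG-mAKT. Fibroblast markers summed to 26.1 CPM in RWPE-ERG-mAKT, nearly all from DCN, and to 2.01 CPM in RWPE1, while no endothelial, immune or choroid plexus marker reached 1 CPM in either.

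The promoters of 5 of the genes with over 2-fold higher levels in RWPE-ERG-mAKT are shown. They hold letter matches to site types of AP-1 and ATF proteins or of the serum response factor. Some immediate early genes are known to be induced through such sites, which was not tested here. The sequences are 100-base stretches of RefSeq promoter windows on GRCh38.p14, written 5′ to 3′ on the strand of the gene. Capitals mark TGACNTCA, a site type bound by JUN-ATF dimers, in JUN (chr1:58784061-58784160, minus strand), JUND (chr19:18281769-18281868, minus strand), ATF3 (chr1:212565238-212565337, plus strand) and KLF6 (chr10:3785328-3785427, minus strand). In EGR1 (chr5:138465340-138465439, plus strand) capitals mark 2 CArG boxes, the site type of the serum response factor.
JUN: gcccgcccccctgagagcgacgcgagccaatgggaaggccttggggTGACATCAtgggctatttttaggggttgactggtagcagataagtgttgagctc
JUND: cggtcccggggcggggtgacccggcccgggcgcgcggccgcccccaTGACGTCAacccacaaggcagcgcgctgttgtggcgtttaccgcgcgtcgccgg
ATF3: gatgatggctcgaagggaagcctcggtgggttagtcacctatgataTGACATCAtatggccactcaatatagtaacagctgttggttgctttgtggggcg
KLF6: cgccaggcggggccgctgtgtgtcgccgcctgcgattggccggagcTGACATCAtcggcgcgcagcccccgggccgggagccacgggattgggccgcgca
EGR1: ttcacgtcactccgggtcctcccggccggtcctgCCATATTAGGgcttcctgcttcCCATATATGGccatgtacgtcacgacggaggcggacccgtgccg

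A window of 300 bases was held for 9 of the 10 genes (10 windows, since ATF3 has more than 1 start), and each was searched on both strands. TGACNTCA was found in 4 genes, JUN, JUND, ATF3 and KLF6, and in 7.72% of all 35116 promoter windows of this length. This motif was added after the sequences had been seen. Its first base lay at position -67 from the start in JUN, -200 in JUND, -123 in ATF3 and -172 in KLF6. The other ATF3 window (chr1:212614768-212615067) held no match. The count is one of genes, whereas the 7.72% is a share of windows. The exact site TGACGTCA, a special case of TGACNTCA, was found only in JUND among the 9 genes and in 1.85% of all windows. The shorter AP-1 site TGANTCA was found only in FOSL2 and in 7.71% of all windows, and the CArG box only in EGR1 and in 1.29%. A match describes the letters in the window and was not tested as a binding site. The windows lie around the annotated start, mostly upstream of it, and bases farther upstream were not searched. A gene without a match in its window can therefore still hold the site elsewhere.

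The level of a gene was the sum of its UMIs in all kept cells of the library, in CPM. Of the 10 genes 6 were over 2-fold higher in RWPE-ERG-mAKT, namely JUN, ATF3, KLF6, JUND, FOS and EGR1. The other 4 had smaller ratios, and the interval of JUNB included no difference. Among the 9533 genes that reached 10 CPM in either library, 771 (8.09%) were over 2-fold higher in RWPE-ERG-mAKT and 1225 (12.9%) over 2-fold lower. None of the 10 members was over 2-fold lower. The median log2 ratio was 1.42 over the 10 genes and -0.08 over all genes tested. Capture at the 3' end differs between genes, so the shares of gene families given next are shares of counted UMIs and are compared between the libraries, not between genes.

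FOS (ENSG00000170345, chr14:75278774-75282230, plus strand), the founding partner of JUN in AP-1, was at 128.8 CPM (127–130.3) in RWPE-ERG-mAKT and 40.5 CPM (39.6–41.4) in RWPE1. The level was 3.18-fold higher in RWPE-ERG-mAKT, and the log2 ratio was 1.67 (1.63 to 1.70). FOSB (ENSG00000125740, chr19:45467995-45475179), a close relative of FOS with similar induction, was at 19.7 CPM in RWPE-ERG-mAKT and 16.5 CPM in RWPE1, a log2 ratio of 0.25 (0.19 to 0.32). It shares its locus with ERCC1 on the opposite strand. FOSL2 (ENSG00000075426, chr2:28392448-28417312), a FOS family member that is induced later and lasts longer, was at 40.4 CPM in RWPE-ERG-mAKT and 30.6 CPM in RWPE1, a log2 ratio of 0.40 (0.36 to 0.45). FOSL2 overlaps AC104695.3 on its own strand, so some of its reads could belong to that gene. It overlaps FLJ31356 on the opposite strand. With FOSL1, the fourth FOS gene, the family summed to 274.3 CPM in RWPE-ERG-mAKT and 126.8 CPM in RWPE1, a log2 ratio of 1.11. FOS made up 47.0% of these UMIs in RWPE-ERG-mAKT and 31.98% in RWPE1. FOSL1 made up nearly the same share, 31.1% and 30.8%. FOSL2 made up 14.7% and 24.1%, and FOSB 7.18% and 13.1%.

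The JUN genes diverged from each other more than the FOS genes did. JUN (ENSG00000177606, chr1:58780788-58784327, minus strand), the main transactivating partner in AP-1, was at 205.5 CPM (203.6–207.3) in RWPE-ERG-mAKT and 28.3 CPM (27.6–29.1) in RWPE1. That made JUN 7.26-fold higher, with a log2 ratio of 2.86 (2.82 to 2.90), which stood at percentile 99.3 of all genes tested. JUND (ENSG00000130522, chr19:18279760-18281622, minus strand), which is known for steady expression in resting cells, was at 246.7 CPM in RWPE-ERG-mAKT and 72.0 CPM in RWPE1, a 3.43-fold higher level (log2 ratio 1.78, 1.75 to 1.80). In barcodes with 200 to 2500 genes, the range the study states, the log2 ratio of JUND was 0.78 (0.50 to 1.08), under the 2-fold line. JUNB (ENSG00000171223, chr19:12791496-12793315, plus strand), a weaker transactivator that can oppose JUN, was at 91.3 CPM (90.0–92.5) in RWPE-ERG-mAKT and 90.2 CPM (88.9–91.6) in RWPE1. Its log2 ratio was 0.02, with an interval of -0.01 to 0.05, and it turned to -0.05 (-0.08 to -0.02) when mitochondrial and ribosomal protein genes were left out of the totals. JUNB overlaps HOOK2 on the opposite strand.

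The make-up of the JUN family therefore differed between the libraries. The 3 genes summed to 543.4 CPM in RWPE-ERG-mAKT and 190.5 CPM in RWPE1, a log2 ratio of 1.51. JUN held 37.8% of the family's UMIs in RWPE-ERG-mAKT (37.5–38.1%) and 14.9% in RWPE1 (14.5–15.2%). JUNB held 16.8% in RWPE-ERG-mAKT and 47.4% in RWPE1. JUND held 45.4% in RWPE-ERG-mAKT and 37.8% in RWPE1.

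EGR1 (ENSG00000120738, chr5:138465490-138469315, plus strand), a zinc finger factor induced through the serum response factor, was at 152.2 CPM (150.6–153.8) in RWPE-ERG-mAKT and 67.3 CPM (66.1–68.4) in RWPE1. EGR1 was thus 2.26-fold higher, with a log2 ratio of 1.18 (1.15 to 1.21). ATF3 (ENSG00000162772, chr1:212565334-212620777, plus strand), a stress-induced partner of JUN that often represses, was at 70.4 CPM (69.3–71.5) in RWPE-ERG-mAKT and 13.7 CPM (13.2–14.3) in RWPE1. This 5.12-fold higher level, a log2 ratio of 2.36 (2.30 to 2.42), was second to JUN among the 10 genes. KLF6 (ENSG00000067082, chr10:3775996-3785281, minus strand), a zinc finger factor with growth-restraining activity in prostate cells, was at 248.4 CPM in RWPE-ERG-mAKT and 69.0 CPM in RWPE1, a 3.60-fold higher level (log2 ratio 1.85, 1.82 to 1.88). IER3 (ENSG00000137331, chr6:30743199-30744554, minus strand), a regulator of apoptosis and ERK signalling, was at 86.5 CPM in RWPE-ERG-mAKT and 51.2 CPM in RWPE1. Its log2 ratio was 0.76 (0.72 to 0.79), under the 2-fold line, and its locus is shared with IER3-AS1 on the opposite strand.

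**Figure D1:**
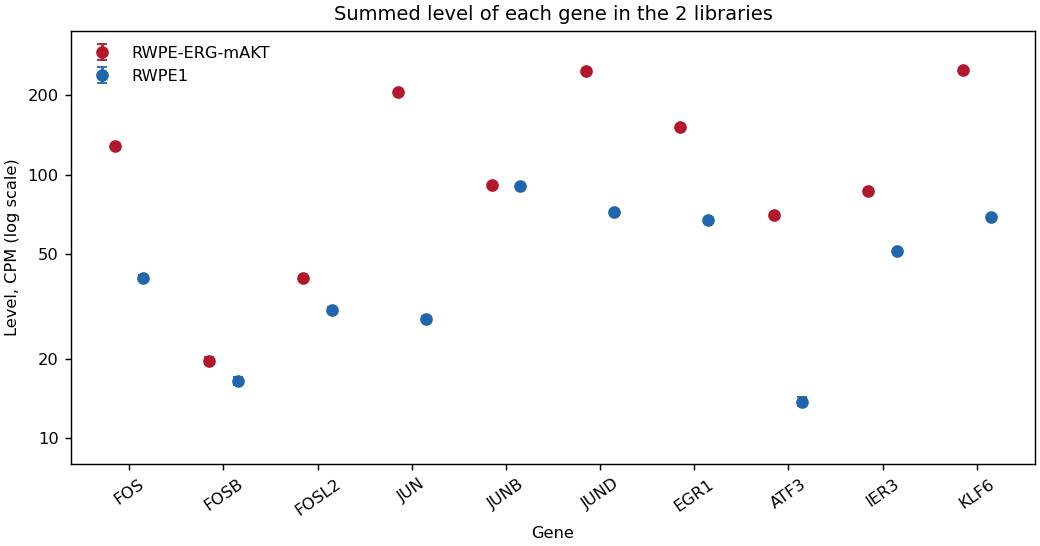
Level of each of the 10 genes in CPM on a log axis, with RWPE-ERG-mAKT left of RWPE1 for each gene; each point is the 1 library of that line and bars are 95% Poisson intervals, mostly smaller than the point. JUN stands farthest apart (205.5 against 28.3 CPM) and the points of JUNB lie at the same height (91.3 against 90.2 CPM).

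To compare how many cells held each RNA, every cell was thinned at random to 5000 UMIs, which left out 6 RWPE-ERG-mAKT cells and no RWPE1 cell as too shallow. Of the 10 genes, 7 were detected in a share of cells over 10 percentage points higher in RWPE-ERG-mAKT, beside 6.84% of the 13346 genes positive in at least 1% of thinned cells of a library. No member was over 10 points lower, beside 6.61% of those genes. IER3 was close to the line, at 10.5 points (9.42 to 11.6). The count of higher members was 5 when at least 2 UMIs were required, and also when cells were thinned to 2000 UMIs. ATF3 and IER3 fell under 10 points in both settings, for which the shares over all genes are not given here. None of the cell types expected in these cultures should lack the genes, so the share that free RNA would give was not measured.

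JUN was detected in 59.4% of RWPE-ERG-mAKT cells (58.6–60.3%) and 12.9% of RWPE1 cells (12.2–13.5%), the widest gap of the 10 at 46.6 points. KLF6 was detected in 64.5% and 26.4%, and JUND in 64.2% and 29.3%, of RWPE-ERG-mAKT and RWPE1 cells. In RWPE-ERG-mAKT these 3 RNAs were each found in most cells even at this depth. EGR1 was detected in 49.5% of RWPE-ERG-mAKT cells and 24.9% of RWPE1 cells, and FOS in 41.5% and 17.9%. ATF3 was detected in 24.9% of RWPE-ERG-mAKT cells (24.2–25.7%) and 6.09% of RWPE1 cells (5.63–6.58%), and IER3 in 31.1% and 20.6%. The other 3 genes differed by under 5 points. FOSL2 was detected in 17.6% of RWPE-ERG-mAKT cells and 13.5% of RWPE1 cells, FOSB in 8.87% and 7.68%, and JUNB in 34.4% (33.6–35.2%) and 34.0% (33.1–34.96%).

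Without thinning, JUN was detected in 86.5% of RWPE-ERG-mAKT cells and 34.8% of RWPE1 cells, and ATF3 in 50.5% and 19.6%. JUNB was then found in fewer RWPE-ERG-mAKT cells than RWPE1 cells (63.6% against 68.5%), as was FOSB (22.7% against 24.0%). The RWPE1 cells were deeper, and both genes were no lower in RWPE-ERG-mAKT by CPM, so no order was read from these unthinned shares.

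**Figure D2:**
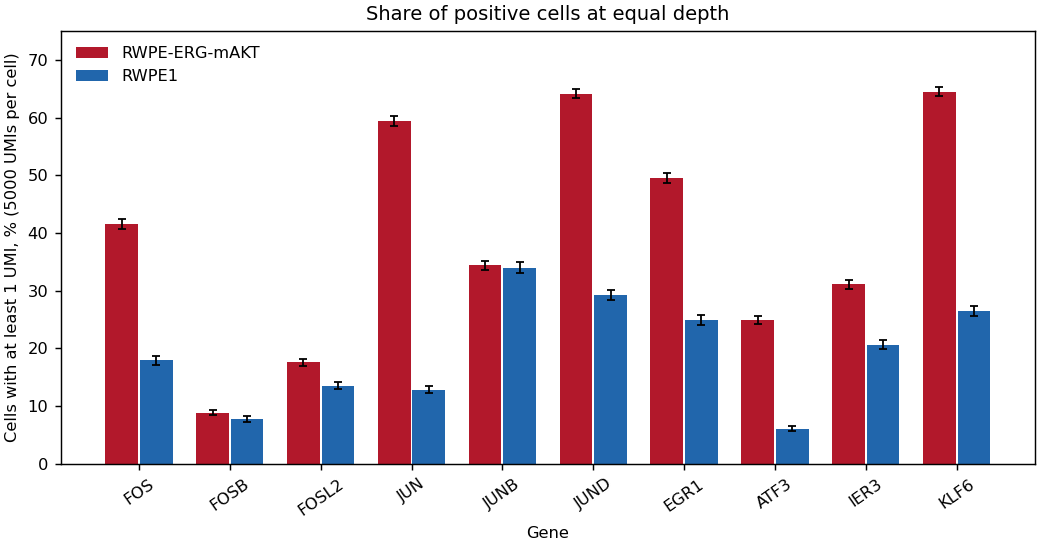
Share of cells with at least 1 UMI of each gene after thinning to 5000 UMIs per cell, in percent, with RWPE-ERG-mAKT left of RWPE1; error bars are exact 95% binomial intervals over 14134 and 9967 cells of 1 library each. JUN, KLF6 and JUND are each detected in over 59% of RWPE-ERG-mAKT cells and under 30% of RWPE1 cells, while the bars of JUNB are level.

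How unevenly the cells of a library held each RNA was measured by the Fano factor, the variance of the thinned UMIs over their mean, which is 1 where counts vary by sampling alone. Among genes with a mean of 0.05 to 1.5 thinned UMIs the median Fano factor was 1.04 in either library. Of the 10 members, 3 (ATF3, FOS and IER3) were above 1.5 in RWPE-ERG-mAKT, beside 2.6% of genes in that range. Only ATF3 was above it in RWPE1, beside 1.95% of genes. Thinned to 8000 UMIs instead, 7 members were above 1.5 in RWPE-ERG-mAKT and 3 in RWPE1. The share of all genes above 1.5 was not computed at 8000 UMIs, so the shares above are no background for these counts. The Fano factor tends to grow with the mean, and the means of most members differed between the libraries.

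ATF3 was the most uneven, with a Fano factor of 2.83 in RWPE-ERG-mAKT and 1.56 in RWPE1. In RWPE-ERG-mAKT 80 cells (0.57%) held 5 or more thinned ATF3 UMIs, up to 45 in 1 cell, and these cells held 13.7% of all ATF3 UMIs. In RWPE1 3 cells held 5 or more, up to 13 in 1 cell. A small number of cells therefore carried far more ATF3 RNA than the rest in RWPE-ERG-mAKT. FOS had a Fano factor of 1.71 in RWPE-ERG-mAKT and 1.14 in RWPE1, with 5 or more UMIs in 182 cells (1.29%) of RWPE-ERG-mAKT and 1 cell of RWPE1. IER3 had Fano factors of 1.62 and 1.32 in RWPE-ERG-mAKT and RWPE1. EGR1 was at 1.33 in RWPE-ERG-mAKT against 1.49 in RWPE1, although its mean was higher in RWPE-ERG-mAKT. FOSL2 was close to sampling noise in both, at 1.03 and 1.06.

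Per cell, the number of the 10 genes detected at 5000 UMIs had a median of 4 in RWPE-ERG-mAKT and 2 in RWPE1. At least 5 of them were detected in 5172 RWPE-ERG-mAKT cells (36.6%) and 470 RWPE1 cells (4.72%). None was detected in 144 RWPE-ERG-mAKT cells (1.02%) and 1456 RWPE1 cells (14.6%). The UMIs of the 10 genes summed to a median of 6 per cell in RWPE-ERG-mAKT, with the 5th percentile at 2 and the 95th at 13, and to a median of 2 in RWPE1, with these percentiles at 0 and 6. The 2 distributions overlapped, but their bulk was displaced, as the plot of genes per cell shows.

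**Figure D3:**
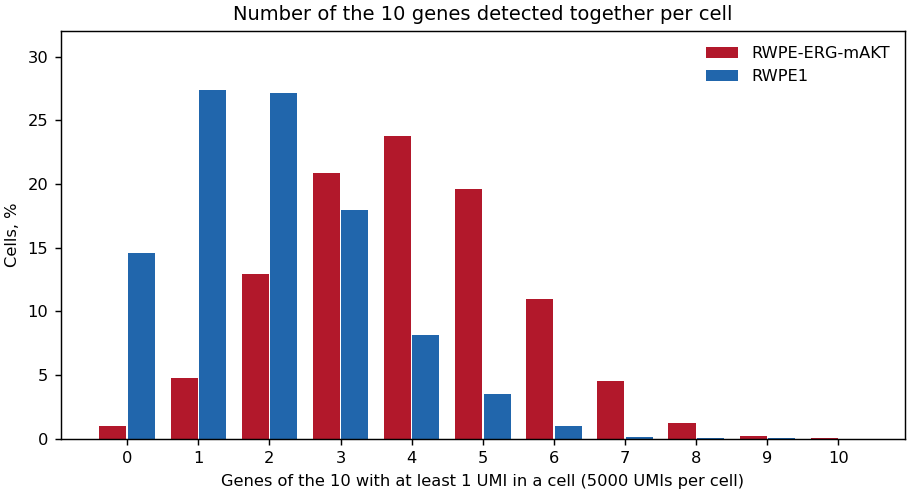
Percent of cells (vertical axis) by the number of the 10 genes with at least 1 UMI (horizontal axis) after thinning to 5000 UMIs, with RWPE-ERG-mAKT left of RWPE1 at each number and 1 library per line. The RWPE-ERG-mAKT cells peak at 4 genes (23.8% of cells) and the RWPE1 cells at 1 gene (27.4%).

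Within a library the 10 genes were only loosely coexpressed. Across the thinned cells the median Spearman rho over the 45 pairs was 0.03 in RWPE-ERG-mAKT (14134 cells) and 0.02 in RWPE1 (9967 cells). The cells of a library share its free RNA, and in counts this sparse a weak correlation is no finding. In RWPE-ERG-mAKT 4 pairs exceeded 0.1, namely FOS with EGR1 (0.15), FOS with FOSB (0.12), JUN with EGR1 (0.11) and FOS with JUN (0.10). In RWPE1 2 pairs did, JUNB with EGR1 (0.14) and JUNB with IER3 (0.12). Other pairs lay just under this line, with JUNB and IER3 at 0.098 in RWPE-ERG-mAKT and FOS and EGR1 at 0.096 in RWPE1. The pairs above it in RWPE1 numbered 4 in cells of 10000 to 15000 UMIs. Thinned to 8000 UMIs, 6 pairs in RWPE-ERG-mAKT and 3 in RWPE1 were above it, with highest values of 0.20 and 0.18. The share of all gene pairs above 0.1 is not given here, so these counts have no background beside them.

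The pairs were also described by shares of cells. Among FOS-positive RWPE-ERG-mAKT cells 56.9% held EGR1 (55.6–58.2%), against 44.3% (43.2–45.4%) of FOS-negative cells. In RWPE1 33.2% of FOS-positive and 23.1% of FOS-negative cells held EGR1. JUN was held by 64.0% of FOS-positive and 56.2% of FOS-negative RWPE-ERG-mAKT cells, so most cells without a FOS UMI held a JUN UMI. Negative means no UMI after thinning, and such cells can still hold the RNA. Without thinning, FOS was detected in 68.6% of RWPE-ERG-mAKT cells. JUNB-positive RWPE1 cells held EGR1 in 32.4% of cases and JUNB-negative cells in 21.0%. IER3 was held by 36.4% of JUNB-positive and 28.4% of JUNB-negative RWPE-ERG-mAKT cells, and by 27.0% and 17.3% of such RWPE1 cells. ATF3 had no pair above 0.1 in either library, and its largest rho was 0.07, with JUND in RWPE-ERG-mAKT.

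**Figure D4:**
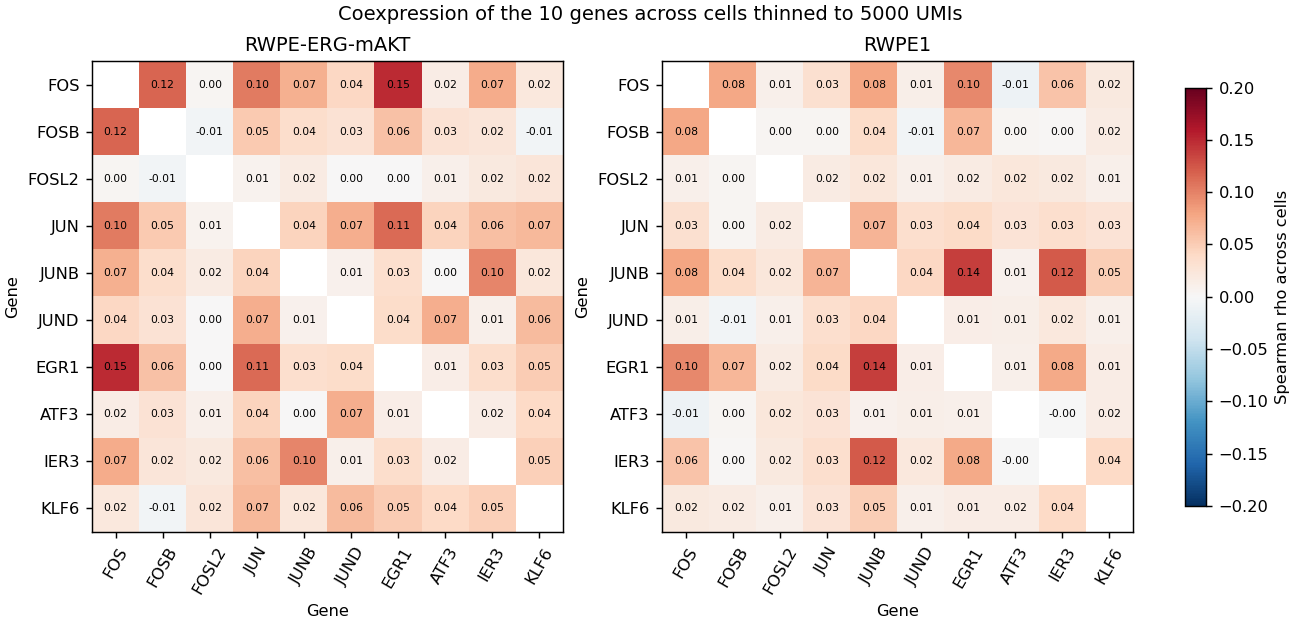
Spearman rho between each pair of the 10 genes across thinned cells, RWPE-ERG-mAKT on the left (14134 cells) and RWPE1 on the right (9967 cells), on a colour scale of -0.2 to 0.2. The highest value is FOS with EGR1 (0.15) in RWPE-ERG-mAKT and JUNB with EGR1 (0.14) in RWPE1.

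Other genes most like each member across cells were ranked by the smaller rho of the 2 libraries, among 5586 genes detected in at least 10% of cells of both. ID1, an inhibitor of basic helix-loop-helix factors, came first for JUNB (0.16 in RWPE-ERG-mAKT, 0.13 in RWPE1), IER3 (0.12 and 0.11) and JUN (0.07 and 0.07), and was also among the first 3 for FOS. DDIT4, a stress-induced inhibitor of mTORC1, was among the first 3 for FOS, JUNB and IER3. FKBP5, a glucocorticoid-induced chaperone partner, came first for FOS (0.07 and 0.07). For EGR1 the first 3 were EFNA5, VMP1 and IER2, the last an immediate early gene itself (0.17 in RWPE-ERG-mAKT and 0.06 in RWPE1). For ATF3 they were PPP1R15A, GADD45A and SAT1, of which PPP1R15A restores translation after stress (0.07 and 0.04). KLF6 was most like HIST1H4C, a replication-dependent histone gene (0.07 and 0.12), and JUND most like S100A6 (0.08 and 0.06). The first gene was MT-ATP6 for FOSB (0.09 and 0.06) and PDE4D for FOSL2 (0.04 and 0.04). Most of these values were small, and the median rho over all candidates was within 0.01 of 0.

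The mitochondrial share of cells moved with some of the members, and the libraries differed in it. In RWPE-ERG-mAKT, FOS was at 107.5, 159.4 and 195.2 CPM in cells with 1 to 3%, 3 to 5% and 5 to 7.5% mitochondrial UMIs (8141, 5043 and 526 cells). In RWPE1 it was at 36.4, 38.4 and 42.1 CPM in the same ranges (350, 3221 and 6378 cells). FOS was thus higher in the RWPE-ERG-mAKT cells with more mitochondrial RNA, and nearly level in RWPE1. EGR1 was at 129.5, 185.2 and 221.7 CPM in RWPE-ERG-mAKT and at 50.4, 61.4 and 72.1 CPM in RWPE1. FOSB was at 15.2, 26.2 and 32.7 CPM in RWPE-ERG-mAKT and at 10.3, 13.7 and 18.7 CPM in RWPE1. In RWPE-ERG-mAKT the gene closest to both FOS and EGR1 across cells was MT-CO1, a mitochondrial gene (rho 0.20 for each).

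Over these ranges JUN and JUND were also higher in the RWPE-ERG-mAKT cells with more mitochondrial RNA, whereas KLF6 and ATF3 were not. KLF6 was flat over them, at 248.8, 249.7 and 249.8 CPM in RWPE-ERG-mAKT and at 70.9, 71.3 and 67.4 CPM in RWPE1. ATF3 was at 72.1, 63.3 and 74.6 CPM in RWPE-ERG-mAKT and at 28.5, 14.8 and 11.9 CPM in RWPE1. The kept cells under 1% mitochondrial UMIs numbered 430 in RWPE-ERG-mAKT and only 18 in RWPE1. ATF3 was highest there in both libraries, at 116.0 CPM (108.2–124.2) in RWPE-ERG-mAKT and 50.6 CPM (31.7–76.6) in RWPE1. KLF6 was at 225.3 and 80.5 CPM in these cells. JUN was at 190.8, 226.1 and 260.4 CPM in RWPE-ERG-mAKT and at 29.5, 29.2 and 27.8 CPM in RWPE1. JUND was at 233.5, 263.2 and 292.8 CPM in RWPE-ERG-mAKT and at 79.7, 71.2 and 71.8 CPM in RWPE1.

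**Figure D5:**
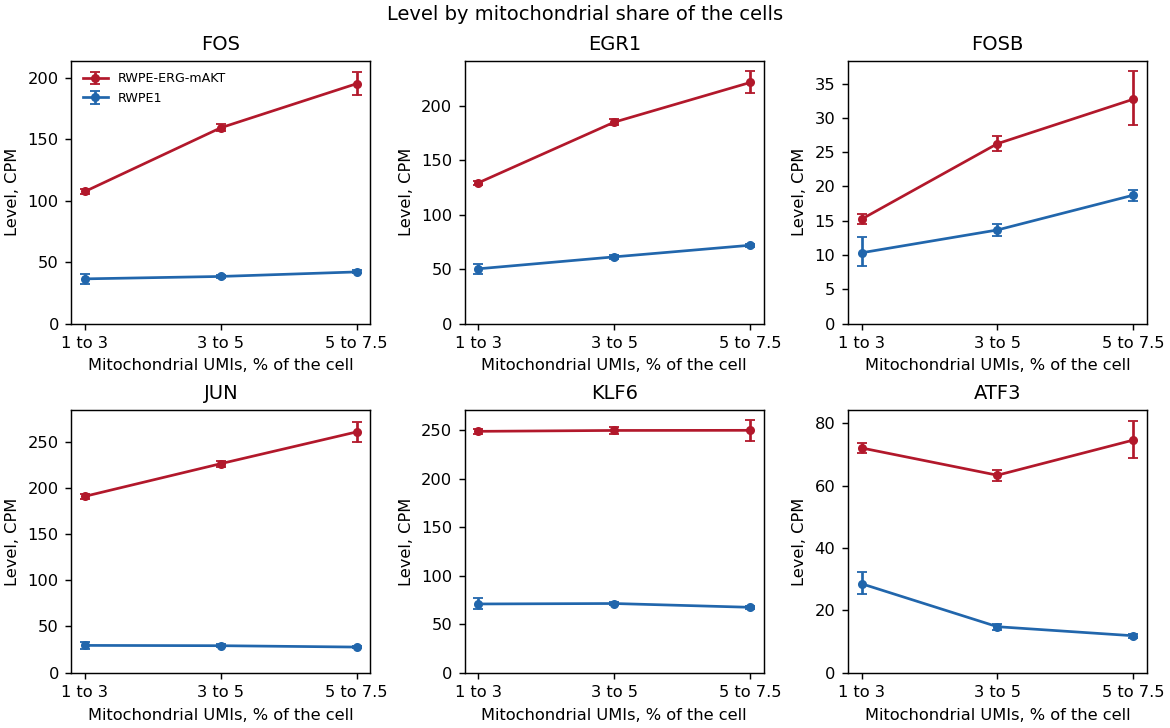
Level in CPM of 6 of the genes in cells of 3 ranges of mitochondrial UMIs, RWPE-ERG-mAKT in red and RWPE1 in blue, 1 library each; bars are 95% Poisson intervals. FOS climbs to 195.2 CPM in RWPE-ERG-mAKT and stays between 36.4 and 42.1 CPM in RWPE1, whereas KLF6 is flat in both. Cells under 1% mitochondrial UMIs are not shown.

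Within 1 range the differences between the libraries persisted. In cells with 3 to 5% mitochondrial UMIs the log2 ratio was 2.95 for JUN (2.88 to 3.02), 2.10 for ATF3 and 2.05 for FOS (1.99 to 2.11). It was 1.89 for JUND, 1.81 for KLF6, 1.59 for EGR1 and 0.04 for JUNB (-0.01 to 0.09). FOSB, at 0.25 over all cells, reached 0.94 (0.83 to 1.05) in this range. JUNB changed direction between ranges, with -0.15 (-0.25 to -0.06) in cells with 1 to 3% mitochondrial UMIs and -0.33 (-0.45 to -0.20) in cells under 10000 UMIs. For FOS the ratio lay between 1.32 and 1.70 over the 4 ranges of cell depth, and for JUN between 2.47 and 2.96. In cells of 3 to 5% mitochondrial UMIs that also had 10000 to 20000 UMIs, the median log2 ratio of the 10 genes was 1.70.

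Some of the members differed between cells with many and with few UMIs of mitotic genes. The tenth of cells with most UMIs of 17 G2/M genes was set against the rest of its library, 1413 against 12721 cells in RWPE-ERG-mAKT and 997 against 8970 cells in RWPE1. ATF3 was lower in the G2/M-high cells of both libraries, with a log2 ratio of -0.75 (-0.92 to -0.59) in RWPE-ERG-mAKT, from 45.2 CPM against 76.0 CPM, and of -0.45 (-0.88 to -0.04) in RWPE1, from 10.6 CPM against 14.5 CPM. KLF6 was higher in the G2/M-high cells of RWPE1, with 94.1 CPM against 63.6 CPM (0.57, 0.42 to 0.71). In RWPE-ERG-mAKT it had 250.1 CPM against 242.8 CPM (0.04, -0.03 to 0.11). JUN had 216.4 CPM in the G2/M-high cells against 210.6 CPM in the rest of RWPE-ERG-mAKT, and 21.7 CPM against 30.8 CPM in RWPE1 (-0.51, -0.81 to -0.23). These cells are the end of a range of a score and not a cell type, with 210 and 157 cells of RWPE-ERG-mAKT and RWPE1 within 1 UMI of the limit, and the part of free RNA in the score was not tested.

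In RWPE-ERG-mAKT, 1322 thinned cells held an ERG UMI and 12812 did not, and the levels given are those of thinned cells. FOS was at 131.6 CPM in cells with an ERG UMI and 140.8 CPM in those without, and JUN at 207.6 and 211.6 CPM. The log2 ratio lay between -0.14 and 0.14 for all 10 genes. For JUNB the interval did not include 0 (-0.14, -0.27 to -0.02), at 87.0 and 96.1 CPM. ERG was sparse, so cells without an ERG UMI are not cells without ERG.

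Related genes were counted from lists, with over 2-fold differences at 10 CPM or more as above. Over all genes tested 8.09% were higher and 12.9% lower in RWPE-ERG-mAKT, and these shares apply to every list below. Of 12 further AP-1 genes 7 reached this level, of which 3 were higher and 1 lower in RWPE-ERG-mAKT, with a median log2 ratio of 0.13. FOSL1 was at 85.3 CPM in RWPE-ERG-mAKT and 39.1 CPM in RWPE1. JDP2, a repressing partner of JUN, was the lower one, at 12.2 and 41.1 CPM, and ATF2, another JUN partner, had a log2 ratio of -0.73. Of 34 other immediate early genes 22 reached this level, 9 higher and 1 lower, with a median of 0.76. IER2 was at 652.2 CPM in RWPE-ERG-mAKT and 57.8 CPM in RWPE1, RHOB at 48.0 and 3.54 CPM, BTG1 at 247.9 and 53.7 CPM, and the phosphatase DUSP1 at 198.9 and 54.7 CPM. The gene that was lower was CCN1, chosen after its value was seen, at 38.7 and 85.5 CPM.

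Few of the listed genes that act upstream of them differed over 2-fold. Of 17 genes for serum response factor cofactors, ERK, JNK and p38 kinases and their partners, 0 were higher in RWPE-ERG-mAKT. The 2 lower ones were MRTFB and ELK4, and the median log2 ratio was -0.36. Counts this small do not stand apart from the shares over all genes, 8.09% higher and 12.9% lower. ELK3 was at -0.75 and MAPKAPK2 at -0.74. Of 12 genes of ERK feedback 9 reached 10 CPM, of which 1 was higher (DUSP4, 1.11) and 7 were lower, with a median of -1.51. DUSP6, the phosphatase of ERK that ERK activity is known to induce, was at 10.9 CPM in RWPE-ERG-mAKT and 35.5 CPM in RWPE1. DUSP5 had a log2 ratio of -1.93 and SPRED2 one of -1.92. Of 18 AP-1 targets 8 reached 10 CPM, of which 1 was higher (SPRR1B, 1.39) and 2 lower, among them CCND1 (-1.82). The median was -0.55, and TIMP1 was at 0.68. These counts are too few to set apart from the shares over all genes and were read as no direction. The 10 targets under that level went both ways, and CXCL8, singled out after its value was seen, was at 8.79 CPM in RWPE-ERG-mAKT and 0.239 CPM in RWPE1.

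Stress lists were counted because ATF3, JUN and FOS are also stress genes. Of 11 heat shock genes 4 were higher and 0 lower, with a median of 0.29. Among the higher were HSPB1 (2.02), DNAJA1 (1.48) and DNAJB1 (1.30). HSPA1A and HSPA1B, the inducible HSP70 genes, were singled out after their values were seen and had log2 ratios of 0.28 and 0.42. Of 9 ATF4 and CHOP genes, the amino acid and unfolded protein stress arm that is also known to induce ATF3, 7 reached 10 CPM, of which 0 were higher and 4 lower (PSAT1, SLC7A11, TRIB3 and SESN2), with a median of -1.04. Of 11 NF-kB genes 7 reached 10 CPM, of which 5 were higher and 0 lower, with a median of 1.78, among them TNFAIP3 (37.1 CPM in RWPE-ERG-mAKT and 1.87 CPM in RWPE1), BIRC3 (3.61), SOD2 (2.84) and NFKBIA (1.78). Of 17 G2/M genes 0 were over 2-fold higher or lower, with a median of 0.06. The part of these programmes in the levels of the 10 genes was not tested.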

How the data were processed

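Single-cell RNA was measured with the 10x Genomics Chromium 3' kit (v3.1) in 1 library of RWPE-ERG-mAKT and 1 of RWPE1, and the authors deposited raw UMI counts per gene and barcode, made with Cell Ranger 7.1.0 on hg38 per the submitters' processing notes. Whether reads in introns were counted is not given in the sources used here. Symbols came from the deposited feature lists and coordinates from GENCODE 29, which held 34616 of 36601 identifiers (94.6%).

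Cells with over 2500 genes and under 7.5% mitochondrial UMIs were kept, giving 225121037 UMIs in RWPE-ERG-mAKT (4446 to 68396 per cell) and 192789925 in RWPE1 (5104 to 94518 per cell). In the study's stated range of 200 to 2500 genes, 2775 and 362 other barcodes had under 7.5% mitochondrial UMIs and were used as an alternative. The study's wording removes cells under 7.5%, and was read here as keeping them. More barcodes were listed for both lines than the 10000 cells loaded. Doublets were not removed; an alternative left out the 5% of cells with most UMIs.

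Levels were summed UMIs per 1000000 UMIs (CPM) with exact Poisson intervals, ratios had exact intervals of a ratio of Poisson counts, and shares had exact binomial (Clopper-Pearson) intervals, all at 95% and covering counting error only. Cells were thinned to 5000 UMIs without replacement (seed 1). A difference was counted when over 2-fold at 10 CPM or more, or over 10 percentage points at a share of 1% or more. Spearman correlations are descriptions. No p-values were computed, since each line had 1 library. All 10 members are named. Other genes were named as the 3 most correlated with a member, as up to 4 of each list with the largest log2 ratio at 20 CPM or more, or as label checks; some genes the rule names are not reported here. The members and lists were chosen with earlier results of these data known. Promoter windows were from RefSeq (GRCh38.p14). The scripts were tested on simulated data. Alternatives varied the scaling, the minimum level, the depth of thinning and the cells kept. Tools were matplotlib 3.10.9, pandas 2.3.3, scipy 1.17.1 and numpy 2.4.6 under Python 3.11.15.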

Additional observations from a re-analysis of the deposited data

Results flagged for a closer look

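FOS, FOSB and EGR1 differed in opposite directions between G2/M-high cells and the rest in the 2 libraries. For FOS the log2 ratio of G2/M-high cells over the rest was 0.13 (0.04 to 0.22) in RWPE-ERG-mAKT and -0.41 (-0.65 to -0.18) in RWPE1. For FOSB it was 0.36 (0.13 to 0.59) in RWPE-ERG-mAKT and -0.50 (-0.90 to -0.13) in RWPE1. For EGR1 it was 0.20 (0.12 to 0.29) in RWPE-ERG-mAKT and -0.73 (-0.93 to -0.53) in RWPE1. In these thinned cells EGR1 was at 180.6 against 157.1 CPM in RWPE-ERG-mAKT, and at 43.7 against 72.3 CPM in RWPE1. The difference between the libraries was not tested, because each line had 1 library. The share of all genes with opposite directions in this split is not given here, nor is the mitochondrial share of the G2/M-high cells.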

How the results depend on the processing

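None of the 6 members over 2-fold higher in RWPE-ERG-mAKT changed direction in any alternative. Changes of direction were not followed for shares of cells or for genes other than the members. Of 140 alternative values of the 28 counts, 119 stayed within 1.5 times the main count. FOS, JUN, EGR1, ATF3 and KLF6 were over 2-fold higher in RWPE-ERG-mAKT in all 14 alternatives and JUND in 13. JUND was at a log2 ratio of 0.78 with the study's range of 200 to 2500 genes, in which ATF3 was at 1.19 and JUN at 1.93. FOSB was over 2-fold higher once, at 1.40 in cells with 7.5% or more mitochondrial UMIs. FOSL2 was at -0.18 (-0.71 to 0.39) with the study's range and JUNB at -0.05 with other totals. Median-of-ratios scaling moved every ratio by 0.04 and put 1 G2/M gene over 2-fold higher. Without a minimum level 4894 genes were over 2-fold higher and 8576 lower, and at 50 CPM 376 and 431. At 50 CPM, where fewer genes are counted, the further AP-1 genes had 1 higher and 0 lower, upstream genes 1 lower, ERK feedback 0 higher and 1 lower, AP-1 targets 0 higher, ATF4 and CHOP genes 2 lower, and NF-kB genes 3 higher. Thinned to 1000 UMIs in the study's range (2269 and 211 cells), 2 members were over 10 points higher, with 0 pairs above 0.1 in RWPE-ERG-mAKT and 10 in RWPE1. RWPE-ERG-mAKT had 13 such pairs in cells with 7.5% or more mitochondrial UMIs (107 before thinning). RWPE1 had 4 in cells of 10000 to 15000 UMIs, and 5 in cells of 3 to 5% mitochondrial and 10000 to 20000 UMIs, a setting chosen after seeing the data. Thinned to 8000 UMIs, 7 members in RWPE-ERG-mAKT and 3 in RWPE1 had a Fano factor over 1.5. The share over all genes was not computed at that depth, and the share of all gene pairs above 0.1 is given for no setting. The causes of these shifts were not tested. Leaving out the barcodes found in both libraries, also chosen after seeing the data, moved no count by over 1.5 times, with 3 pairs above 0.1 in RWPE1. No paired analysis was possible because each line had 1 library.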
